A study of Mus musculus with 12 samples.

Results

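The genes described here are the amino acid transporters of 7 solute carrier families (Slc1, Slc3, Slc6, Slc7, Slc36, Slc38 and Slc43), measured in E14 cells, a mouse embryonic stem (ES) cell line. Every gene whose symbol consists of one of these family names, the letter a and a number was taken as a member. These families were picked because the signals of Slc38a5 and Slc6a13 were high when subunits of the NuRD complex were depleted, so the values of both genes in Mbd3 KD and Chd4 KD are given as a description, without a test. The other members came in through their names alone. A table of mouse genes listed 61 such symbols, of which 59 had a probe on the array and 55 passed the filter on dim probes, out of 29848 genes tested in all. The 55 members comprised 7 of 7 genes of Slc1, 1 of 2 of Slc3, 15 of 19 of Slc6, 14 of 15 of Slc7, 4 of 4 of Slc36, 11 of 11 of Slc38 and 3 of 3 of Slc43. Slc6a5 and Slc6a16 had no probe named here. Slc7a11, Slc3a1, Slc6a14 and Slc6a19 had no group in which both arrays stood well above background, and were not tested. Slc7a11, the cystine and glutamate exchanger, was well above background on 0 of 12 arrays.

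The cells were grown without feeders on gelatin in medium with serum and LIF and were transfected with endoribonuclease-prepared siRNAs (esiRNAs), each group receiving esiRNAs against a single gene. RNA was taken after 48 hr, and each sample was hybridised to a one-colour Agilent array. There were 6 groups of 2 arrays, described by the study as biological duplicates. EGFP KD, in which the esiRNAs target a gene that these cells lack, was the control. The other groups were Dnmt1 KD (the maintenance DNA methyltransferase), Tet1 KD (an enzyme that oxidises 5-methylcytosine), Mbd3 KD and Mbd2 KD (alternative methyl-CpG binding domain subunits of NuRD) and Chd4 KD (the ATP-dependent remodelling subunit of NuRD). A transient KD leaves some of the targeted mRNA, and all groups are of 1 cell line.

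Amino acid transporters move amino acids across the plasma membrane or out of lysosomes, and each family has its own driving force. Slc1 proteins carry glutamate, aspartate or small neutral amino acids, Slc6 proteins use the sodium and chloride gradients to carry GABA, glycine, creatine, taurine and monoamines, and Slc36 proteins are driven by protons. Most light chains of Slc7 work only when joined to a heavy chain of Slc3, whereas the cationic transporters of Slc7 work alone, and Slc38 comprises sodium-coupled carriers of glutamine and other neutral amino acids (systems A and N). NuRD joins nucleosome remodelling to histone deacetylation, and Mbd2 binds methylated CpG sites with high affinity.

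Since most of the proteins targeted in this study bind, write or oxidise methylated CpG, the start regions of the genes that chose the families are printed first, with that of Slc36a4 for contrast. Each window holds 300 bases, from 250 bases before to 50 bases after an annotated start, taken from RefSeq on GRCm38.p6. Capitals mark every CG, the 2 letters of a CpG, which reads the same on both strands and cannot overlap itself.
Slc38a5, chrX:8271131-8271430, plus strand: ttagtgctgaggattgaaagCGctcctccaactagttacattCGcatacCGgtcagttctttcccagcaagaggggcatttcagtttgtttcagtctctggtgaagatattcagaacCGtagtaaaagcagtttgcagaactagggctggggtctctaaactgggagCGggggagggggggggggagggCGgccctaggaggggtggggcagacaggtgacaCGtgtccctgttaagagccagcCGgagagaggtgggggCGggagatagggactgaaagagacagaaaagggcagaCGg
Slc6a13, chr6:121300038-121300337, plus strand: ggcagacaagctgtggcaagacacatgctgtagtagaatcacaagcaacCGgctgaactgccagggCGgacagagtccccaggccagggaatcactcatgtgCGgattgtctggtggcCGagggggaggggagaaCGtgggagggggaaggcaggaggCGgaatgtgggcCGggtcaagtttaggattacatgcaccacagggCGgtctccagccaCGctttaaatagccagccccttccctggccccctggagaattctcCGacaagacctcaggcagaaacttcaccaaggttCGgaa
Slc36a4, chr9:15709488-15709787, plus strand: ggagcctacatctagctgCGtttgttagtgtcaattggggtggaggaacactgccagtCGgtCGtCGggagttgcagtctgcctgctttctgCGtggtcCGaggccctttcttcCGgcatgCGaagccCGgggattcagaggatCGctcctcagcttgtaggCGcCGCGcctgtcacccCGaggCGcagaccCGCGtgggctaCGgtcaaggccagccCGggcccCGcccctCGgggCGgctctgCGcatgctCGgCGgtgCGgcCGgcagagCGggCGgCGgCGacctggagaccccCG
The Slc38a5 window held 10 CpG, a number reached by 43.5% of 32851 windows in the table, and the Slc6a13 window held 11, reached by 41.4%. The windows at the other 2 annotated starts of Slc6a13 held 7 and 2 CpG. The Slc36a4 window held 32 CpG, reached by 9.52% of windows, the window of Slc1a1 also held 32, and that of Slc43a1 held 26 (16.9%). The median was 7 over all windows and 15 over the first windows of the 43 members that had one, and 18 members, Slc7a3 among them, had no window in the table. Methylation and binding at these windows were not analysed here.

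Signals were divided by the 75th percentile of their array, so that a log2 level of 0 is the 75th percentile, and levels below -4.86 were set to that floor. Levels are compared between groups for the same probe only. The arrays lay on 3 slides, each holding several groups. Slide 1 had the first replicates of Mbd3 KD, EGFP KD, Mbd2 KD and Dnmt1 KD, replicate 2 of EGFP KD shared slide 2 with both Tet1 KD arrays and replicate 1 of Chd4 KD, and the remaining arrays filled slide 3, which had no control. On each array, 30325 to 37519 probes stood well above background. The targeted mRNA differed from EGFP KD by -2.96 on the log2 scale in Mbd3 KD (limma adjusted p = 0.0039) and by -1.28 in Chd4 KD (adjusted p = 0.042), the latter not called under 13 of 23 alternative settings. Dnmt1 differed by -1.99 in Dnmt1 KD and was not called (limma adjusted p = 0.37). The targeted gene went against the label on 1 array each of Tet1 KD and Mbd2 KD, replicate 1 in both cases, so both groups are named as labelled. Tet1 lay -0.02 and -1.81 from its EGFP KD mean in the first and second samples with the Tet1 KD label, and -1.79 from it in the first with the Mbd2 KD label. Values of the dimmer Mbd2 probe were -0.24 and -1.77 in the pair with the Mbd2 KD label and -1.75 in the first with the Tet1 KD label, while those of the brighter Mbd2 probe were -0.08 and -0.07 in the Mbd2 KD pair. The mean differences of the labelled groups, -0.92 for Tet1 and -0.08 for Mbd2, were not called (limma adjusted p = 1 for both). Markers of ES cells summed to between 160 and 210 times the 75th percentile on all arrays, and 0 of 10 were called in any KD. In Chd4 KD, 8 of the 10 had values below EGFP KD and 2 above, with a median difference of -0.16.

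Of the 55 members tested, 39 were well above background on all 12 arrays, none was saturated on any array, and 3 (Slc6a18, Slc6a21 and Slc7a14) lay at the floor on all of them. Slc6a6 lacked a value for Chd4 KD replicate 2, so that its value in Chd4 KD rests on 1 array. In bulk RNA, fewer cells with a transcript and less of it per cell cannot be told apart.

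Slc38a5, a system N carrier that exchanges glutamine, histidine and related amino acids for protons, was high on both Mbd3 KD arrays and, by less, on both Chd4 KD arrays. Its log2 level was -1.37 and -1.14 on the EGFP KD arrays, 1.50 and 1.60 in Mbd3 KD, and -0.47 and -0.44 in Chd4 KD. It was -1.41 and -1.38 in Mbd2 KD, -1.36 and -0.99 in Dnmt1 KD and -1.59 and -1.34 in Tet1 KD. The Mbd3 KD and Chd4 KD arrays thus lay above all 8 others, with the Mbd3 KD pair farthest away. The mean difference from EGFP KD was 2.80 in Mbd3 KD, a 6.96-fold higher signal, and 0.80 in Chd4 KD, 1.74-fold. Within a slide the difference was 2.86 between Mbd3 KD and EGFP KD on slide 1, and 0.67 between Chd4 KD and EGFP KD on slide 2. On slide 3, Mbd3 KD exceeded Mbd2 KD by 2.98 and Chd4 KD by 2.04.

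Slc6a13 encodes the GABA transporter GAT2, which also carries betaine and taurine. Its log2 level was -4.36 and -3.37 in EGFP KD and 0.29 and -0.04 in Chd4 KD. In Mbd3 KD it was -2.73 and -1.98. It was -3.85 and -2.32 in Mbd2 KD, -3.85 and -2.0 in Dnmt1 KD and -3.17 and -3.15 in Tet1 KD. Only the Chd4 KD arrays stood clear of the rest, since the other arrays on slide 3, Dnmt1 KD replicate 2 and Mbd2 KD replicate 2, reached the level of Mbd3 KD. The mean difference from EGFP KD was 3.99 in Chd4 KD, a 15.9-fold higher signal, with 3.66 on slide 2, where the control was on the same slide. In Mbd3 KD the mean difference was 1.51. On slide 1, Mbd3 KD exceeded EGFP KD by 1.63 and Mbd2 KD by 1.12, whereas on slide 3 it exceeded Dnmt1 KD by 0.02 and Mbd2 KD by 0.33.

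The differences of Slc38a5 and Slc6a13 thus ran in opposite order between these KDs. Slc38a5 was lower in Chd4 KD than in Mbd3 KD by 2.00 on the log2 scale, and Slc6a13 was higher by 2.48. In the KDs that did not choose the families, 0% of all genes were called against EGFP KD. Neither gene was called there, and nothing is read from that. Slc38a5 differed by -0.21 in Tet1 KD, -0.15 in Mbd2 KD and 0.07 in Dnmt1 KD (standard error, SE, 0.15, limma adjusted p between 0.99 and 1). Slc6a13 differed by 0.70, 0.78 and 0.94, respectively, with an SE of 0.73 (limma adjusted p between 0.94 and 1).

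**Figure D1:**
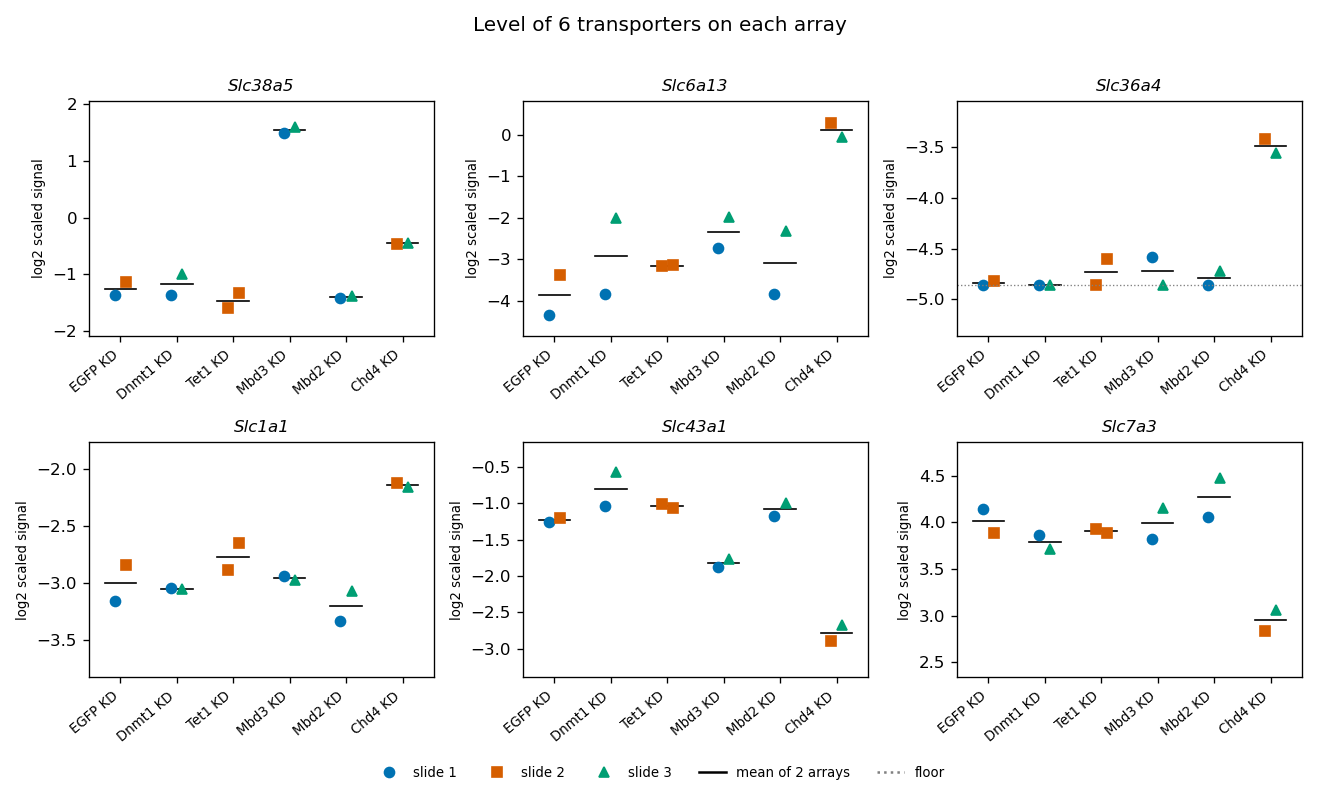
Log2 scaled signal (vertical axis) of 6 transporters on each of the 12 arrays, by KD (horizontal axis). Each point is 1 array, with colour and shape for its slide, the bar is the mean of the 2 arrays, and log2 0 is the array's 75th percentile. Slc38a5 stood highest in Mbd3 KD (1.50 and 1.60), and Slc6a13 in Chd4 KD (0.29 and -0.04).

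Chd4 KD was then compared with EGFP KD over all members, to see which transporters changed when the remodelling subunit was depleted. In this comparison 3.2% of all genes passed a limma adjusted p of 0.05, with 1.96% higher and 1.24% lower, and 6 of the 55 members passed, with 4 higher and 2 lower. Because this contrast chose the families, nothing is read from that share. Apart from Slc38a5 and Slc6a13, 4 of 53 members were called, namely Slc36a4 and Slc1a1, which rose, and Slc43a1 and Slc7a3, which fell. The median difference was 0.09 over members and 0 over all genes. Regardless of direction, the median size was 0.39 over members and 0.26 over all genes. Within 0.5 log2 units of EGFP KD lay 31 of the 55 members, against 73.7% of all genes. At an unadjusted p under 0.05 there were 11 members and 12.8% of all genes. The count fell to 2 when either Chd4 KD array or replicate 1 of EGFP KD was left out, to 3 without replicate 2 of EGFP KD or without either array labelled Tet1 KD, and to 2 without both arrays whose target went against the label, which enter only through the shared estimate of the spread.

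Slc43a1 encodes LAT3, a carrier of leucine and other large neutral amino acids that works without a heavy chain. Its log2 level was -1.25 and -1.20 in EGFP KD and -2.89 and -2.68 in Chd4 KD, while Mbd3 KD lay between them at -1.87 and -1.76. The arrays of Tet1 KD, Mbd2 KD and Dnmt1 KD lay between -1.17 and -0.57, so that the 4 arrays of Chd4 KD and Mbd3 KD were the lowest of the 12. Slc43a1 fell by 1.56 in Chd4 KD (SE 0.16, limma adjusted p = 0.0042), to 0.338 of its control level. The difference was -1.70 within slide 2, and it was not called under 1 of 23 alternatives, the fit on only the 4 arrays of the comparison. In Mbd3 KD the difference was -0.59 and did not pass (SE 0.16, limma adjusted p = 0.22).

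The other 2 members of Slc43 did not pass in Chd4 KD. Slc43a2, the related carrier LAT4, lay at -1.39 and -1.15 in EGFP KD and at -0.78 and -0.59 in Chd4 KD, a difference of 0.58 (limma adjusted p = 0.21). Slc43a3 differed by -0.29.

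Among the cationic transporters and their relatives, 1 of 5 was called, against 3.2% of all genes. Slc7a3 encodes CAT3, a carrier of arginine and lysine. The log2 level lay at 4.14 and 3.88 in EGFP KD and 2.84 and 3.07 in Chd4 KD, and all other arrays lay between 3.72 and 4.48. Slc7a3 fell by 1.06 in Chd4 KD (SE 0.19, limma adjusted p = 0.030), to 0.480 of its control level. The difference within slide 2 was -1.05. Under 11 of 23 alternatives it was not called, among them quantile normalization and the fits without either Chd4 KD array, either EGFP KD array or either array of Dnmt1 KD or Tet1 KD.

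Slc7a1, the broadly expressed cationic carrier CAT1, was not called in Chd4 KD. The log2 level lay at 2.71 and 2.67 in EGFP KD, 2.47 and 2.63 in Chd4 KD, and 3.23 and 3.39 in Mbd3 KD. The difference from EGFP KD was -0.14 in Chd4 KD (SE 0.12, limma adjusted p = 0.82) and 0.62 in Mbd3 KD (limma adjusted p = 0.087). Slc7a2, the cationic carrier CAT2, lay at or within 0.1 of the floor on all arrays, and Slc7a4 differed by -0.06 in Chd4 KD.

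Among the glutamate and aspartate carriers of Slc1, 1 of 5 was called in Chd4 KD, against 3.2% of all genes. Slc1a1 encodes EAAT3, the neuronal and epithelial carrier of glutamate and cysteine. The log2 level lay at -3.16 and -2.84 in EGFP KD and -2.12 and -2.16 in Chd4 KD, above all 10 other arrays, which ranged from -3.33 to -2.65. Slc1a1 rose by 0.86 in Chd4 KD (SE 0.14, limma adjusted p = 0.023), 1.81-fold, and by 0.72 within slide 2. Under 7 of 23 alternatives it was not called, among them quantile normalization, the trended and robust variance prior and the fits without either Chd4 KD array or without EGFP KD replicate 1. Slc1a3, the glial carrier EAAT1 (GLAST), had its lowest levels in Chd4 KD, at -3.21 and -3.22, against -2.23 and -1.82 in EGFP KD. Its difference of -1.18 missed the threshold (SE 0.26, limma adjusted p = 0.063), and the other 8 arrays lay between -2.45 and -1.81.

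The neutral exchangers of Slc1 gave no call in Chd4 KD, where 3.2% of all genes were called. Slc1a5, the glutamine exchanger ASCT2, lay at 1.50 and 1.09 in EGFP KD and at 0.67 and 0.83 in Chd4 KD, which were its lowest levels on the 12 arrays, and differed by -0.55 (SE 0.16, limma adjusted p = 0.17). Its second probe differed by -0.70. Slc1a4, the related exchanger ASCT1, differed by -0.19, less than the gap of 0.88 between its control arrays.

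Of the proton-coupled carriers, 1 of 4 was called, against 3.2% of all genes. Slc36a4 encodes PAT4, which has high affinity for proline and tryptophan. It lay at the floor or within 0.3 of it on all 10 arrays other than those of Chd4 KD, with -4.86 and -4.82 in EGFP KD, and reached -3.42 and -3.56 in Chd4 KD. Slc36a4 rose by 1.35 in Chd4 KD (SE 0.13, limma adjusted p = 0.0034), 2.54-fold. Since the control levels sat on the floor, this size depends on the floor. It was not called under 4 of 22 alternatives, which were normexp background correction (0.77, limma adjusted p = 0.081), quantile normalization (1.16, limma adjusted p = 0.19), the fit on only the 4 arrays of the comparison and the authors' table, and a second Slc36a4 probe lay at the floor on all arrays. Slc36a1, the lysosomal carrier PAT1, differed by 0.02 in Chd4 KD.

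The glutamine carriers of system A gave 0 calls among 3 in Chd4 KD, where 3.2% of all genes were called. Slc38a2 (SNAT2), which is induced by amino acid starvation in many cells, lay at 3.26 and 2.93 in EGFP KD and 3.34 and 3.93 in Chd4 KD, a difference of 0.54 (limma adjusted p = 0.53). Slc38a1 (SNAT1) differed by -0.23 (limma adjusted p = 0.45) and Slc38a4 by 0.20 (limma adjusted p = 0.91). Slc38a3, the other system N carrier, lay between -1.56 and -1.25 on all 12 arrays. It differed by 0.22 in Chd4 KD (limma adjusted p = 0.48) and 0.13 in Mbd3 KD.

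Heteromeric transporters of Slc7 and Slc3 likewise gave 0 calls, over 9 light chains and 1 heavy chain. With 3.2% of all genes called in Chd4 KD, nothing is read from 0 calls among so few genes. Slc3a2, the heavy chain CD98hc, lay at 4.54 and 4.12 in EGFP KD and 4.15 and 3.78 in Chd4 KD, a difference of -0.36 (limma adjusted p = 0.86). Slc7a5 (LAT1), its partner in leucine uptake, differed by -0.42 (limma adjusted p = 0.86), and a second Slc7a5 probe by -0.11. On slide 2, which held an array of both groups, Slc3a2 lay at 4.12 in EGFP KD and 4.15 in Chd4 KD. Slc7a5 lay there at 0.56 and 0.47, respectively. Slc7a7 (y+LAT1), another partner of Slc3a2, lay at 3.87 and 3.89 in EGFP KD and 4.05 and 4.38 in Chd4 KD, a difference of 0.34. Slc7a6, a light chain that exchanges cationic for neutral amino acids, lay at -1.77 and -1.88 in EGFP KD, -1.44 and -0.77 in Chd4 KD and -1.08 and -0.38 in Mbd3 KD. Both KDs thus lay above the controls, by 0.71 in Chd4 KD (limma adjusted p = 0.36) and 1.09 in Mbd3 KD (SE 0.29, limma adjusted p = 0.21), and neither passed. Slc7a6 also lay above both controls in Dnmt1 KD (-1.32 and -1.24) and Mbd2 KD (-1.48 and -1.15), but not in Tet1 KD (-1.92 and -1.64).

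Slc6a13 chose the families and is left out of the count for Slc6. No other gene of that family was called in Chd4 KD, where 3.2% of all genes were. Slc6a12, the betaine and GABA carrier next to Slc6a13 in the genome, lay at -2.30 and -1.98 in EGFP KD and at -1.82 and -1.83 in Chd4 KD, a difference of 0.32 (limma adjusted p = 0.91). Slc6a8, the creatine carrier, differed by -0.25 and Slc6a6, the taurine carrier, by 0.09 on 1 Chd4 KD array. Slc6a9, the glycine carrier GlyT1, lay at -0.02 and -0.11 in EGFP KD and at -0.30 and -0.17 in Chd4 KD, a difference of -0.18 (SE 0.12, limma adjusted p = 0.72). The monoamine carriers Slc6a2, Slc6a3 and Slc6a4 differed by 0.53, 1.05 and 0.52, and none was called. Slc6a3 was at the floor in EGFP KD replicate 1, whereas on slide 2 it lay at -2.89 in EGFP KD and -2.80 in Chd4 KD.

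Slc38a11, a little studied relative of the Slc38 carriers, had the largest difference in Chd4 KD after Slc6a13, 2.09, but did not pass (SE 0.92, limma adjusted p = 0.42). Its arrays spread widely within groups, from -4.39 to -2.16 in Dnmt1 KD and from -4.58 to -2.52 in Mbd2 KD, and Chd4 KD lay above all of them at -2.04 and -1.64. A second Slc38a11 probe, dimmer on average, differed by -0.17.

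**Figure D2:**
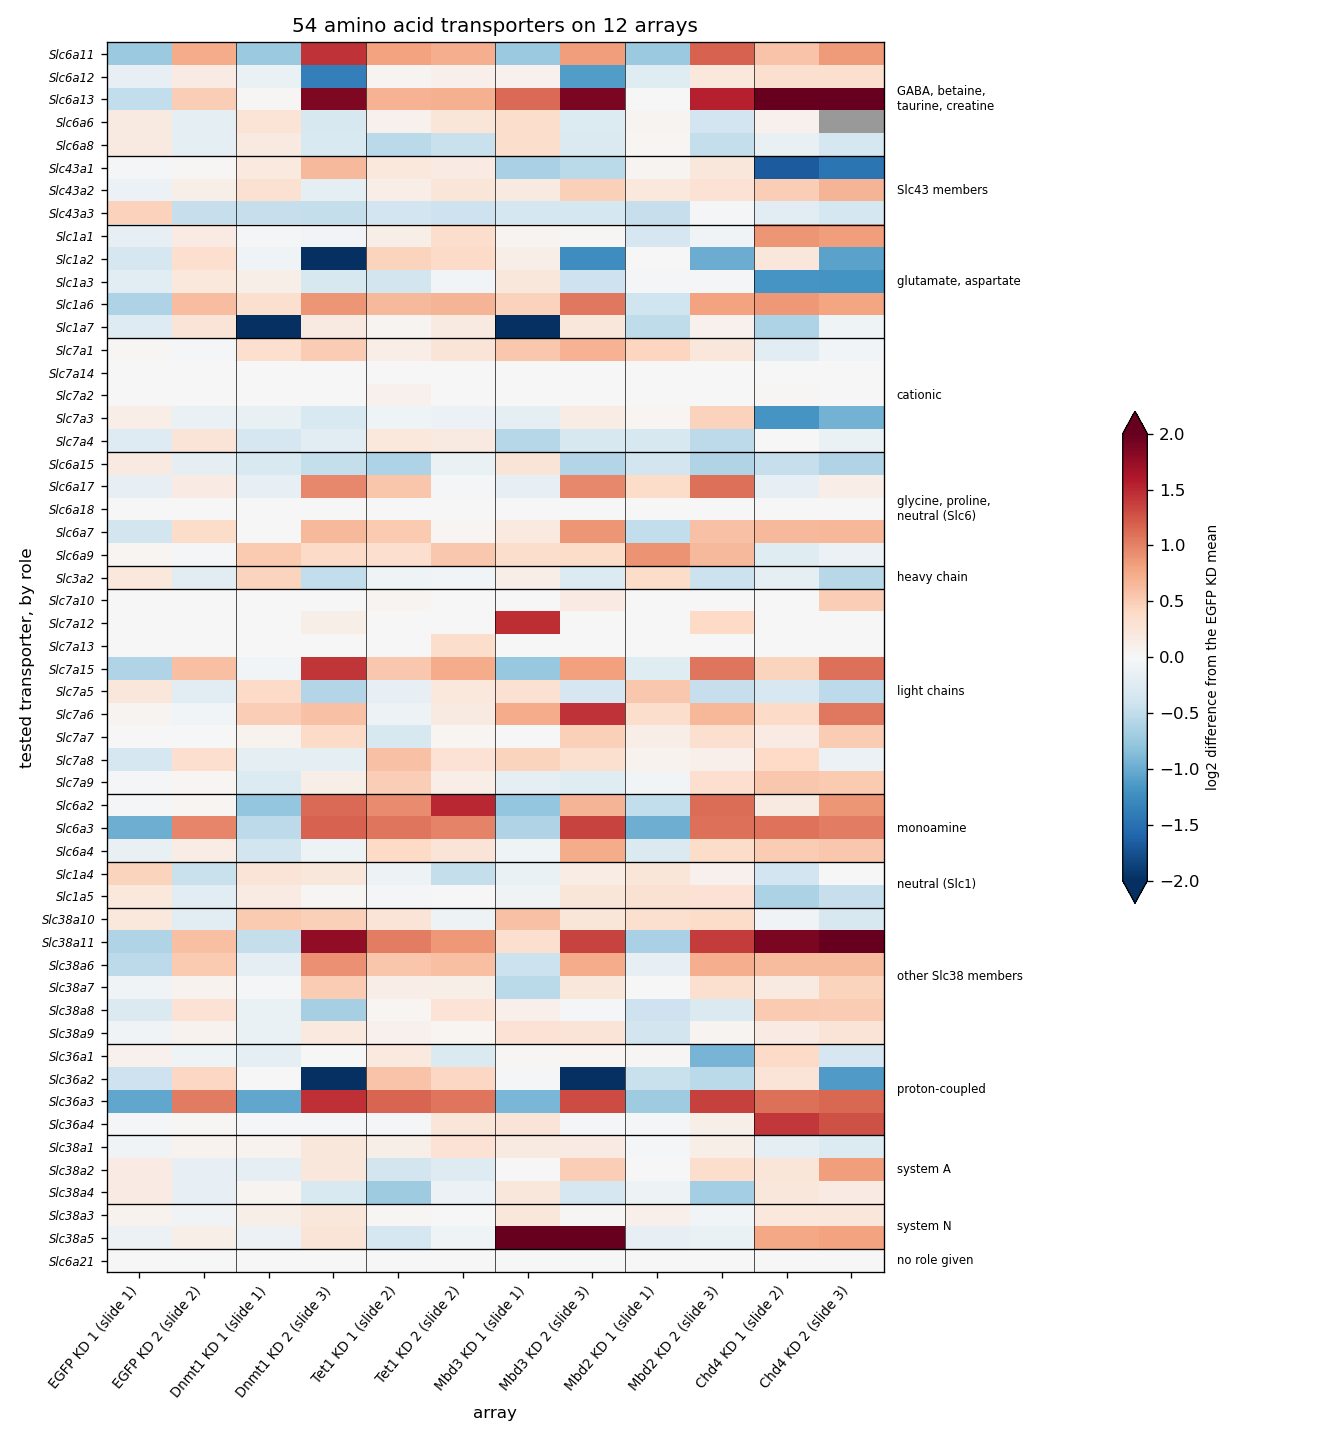
Difference of each of 54 tested transporters (rows, grouped by role) from its mean in EGFP KD, on each of the 12 arrays (columns), in log2 units on a colour scale from -2 to 2. Grey marks the missing Slc6a6 value. The strongest contrasts with EGFP KD on both arrays of a KD are those of Slc38a5 in Mbd3 KD (2.80) and Slc6a13 in Chd4 KD (3.99), both past the end of the scale.

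Counting members whose arrays did not overlap with those of EGFP KD gave 23 higher and 9 lower of 55 in Chd4 KD, where 19.2% of all genes were higher and 19% lower. The corresponding numbers were 9 and 3 in Mbd3 KD (13.1% and 16.9% of all genes), 8 and 3 in Dnmt1 KD (10.7% and 10.6%), 9 and 5 in Mbd2 KD (10.5% and 12.5%) and 18 and 2 in Tet1 KD (23.3% and 12%). Between KDs they were 10 and 9 for Chd4 KD against Mbd3 KD (18.1% and 14.1%) and 8 and 4 for Mbd3 KD against Mbd2 KD (10.1% and 11.6%). All these counts take in Slc38a5 and Slc6a13, whose values in Chd4 KD and Mbd3 KD chose the families. Nothing is therefore read from the shares in comparisons with Chd4 KD or Mbd3 KD.

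In Mbd3 KD against EGFP KD, 1 of 55 members was called, Slc38a5, where 0.764% of all genes were, and nothing is read from that share either. The count was 2 without Mbd3 KD replicate 2 and 0 without both arrays whose target went against the label. Among the other 53, 0 were called by limma and 5 had an unadjusted p under 0.05, as had 9.67% of all genes. They were Slc7a6, Slc7a1, Slc43a1 and Slc6a9, given with their values here, and Slc7a4, the last named only after its value was seen (-0.44, limma adjusted p = 0.51). Slc6a9 lay at 0.29 and 0.31 in Mbd3 KD, above both control arrays, a difference of 0.36 (limma adjusted p = 0.35). The largest falls were those of Slc36a2 (-1.05), Slc1a7 (-0.96) and Slc43a1 (-0.59), and none passed. Slc36a2 and Slc1a7 disagreed between their Mbd3 KD arrays, at -2.09 and -4.12 for Slc36a2 and at -2.33 and 0.05 for Slc1a7. The median difference was 0.04 over members and -0.03 over all genes, and 42 of the 55 members lay within 0.5 log2 units of EGFP KD, as did 75.2% of all genes.

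Chd4 KD and Mbd3 KD were also compared directly, to ask whether a transporter called in one and not in the other differed between them. In this comparison 1.45% of all genes were called, with 1.04% higher and 0.412% lower in Chd4 KD, and 5 of 55 members, with 2 higher and 3 lower. Slc38a5 is 1 of the 5, and since the families were chosen on these arrays nothing is read from its call. Among the 53 members other than Slc38a5 and Slc6a13, 4 were called, 2 in each direction. An unadjusted p under 0.05 was found for 11 of them, against 10.1% of all genes. The comparison uses no EGFP KD level, but the same Chd4 KD and Mbd3 KD arrays as above. Slc36a4 was higher in Chd4 KD than in Mbd3 KD by 1.23 (limma adjusted p = 0.0084) and Slc1a1 by 0.82 (limma adjusted p = 0.046). Slc43a1 was lower by 0.97 on the log2 scale (limma adjusted p = 0.041) and Slc7a1 by 0.76 (limma adjusted p = 0.034). Slc7a3 differed by -1.04 and missed the threshold (limma adjusted p = 0.052). On slide 3, which held an array of each KD, the differences were 1.30, 0.82, -0.92, -0.76 and -1.09, respectively.

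The call of Slc1a1 was lost in 19 of 22 alternatives, that of Slc43a1 in 15 and that of Slc7a1 in 14. Each of the 3 was lost without any single array of Chd4 KD, Mbd3 KD, EGFP KD or Tet1 KD, those of Slc1a1 and Slc43a1 also without either array labelled Mbd2 KD, and that of Slc1a1 also without either Dnmt1 KD array. With slide as a block, the calls of Slc1a1 (0.70, limma adjusted p = 0.11) and Slc7a1 (-0.72, limma adjusted p = 0.092) were lost, and those of Slc43a1 and Slc36a4 were not. That of Slc36a4 was lost in 4 of 21, among them the fit without Chd4 KD replicate 1. The count of 5 fell to between 1 and 2 without either Chd4 KD array, either EGFP KD array, either array labelled Tet1 KD or Mbd3 KD replicate 1, to 3 without Mbd3 KD replicate 2 or either array labelled Mbd2 KD, and to 2 without both arrays whose target went against the label.

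Mbd3 KD was compared with Mbd2 KD, as labelled, a difference that uses no EGFP KD level, although all 12 arrays enter the estimate of the spread. Here 0.523% of all genes were called. The call of 1 of 55 members, Slc38a5, rests on the Mbd3 KD arrays that chose the families, so its difference of 2.95 is given without a test. Among the 53 members other than it and Slc6a13, 0 were called by limma and 4 had an unadjusted p under 0.05, as had 6.88% of all genes. Slc43a1 was lower in Mbd3 KD on both slides that held the pair, by 0.70 on slide 1 and 0.77 on slide 3, but its mean difference of -0.73 did not pass (limma adjusted p = 0.15). Slc6a13 differed by 0.73, and by -0.04 when the array labelled Mbd2 KD replicate 1 was left out.

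In Tet1 KD and Mbd2 KD, as labelled, and in Dnmt1 KD, 0 of 55 members were called by limma, as were 0% of all genes in each. These comparisons share the EGFP KD arrays with those above. At an unadjusted p under 0.05 there were 4 members in Dnmt1 KD, where 4.73% of all genes passed, 1 in Tet1 KD (2.85% of all genes) and 2 in Mbd2 KD (2.08%). In Dnmt1 KD they were Slc6a9 (0.45), Slc7a1 (0.42), Slc43a1 (0.42) and Slc38a10 (0.50), with limma adjusted p between 0.62 and 0.94. Slc6a9 was also the 1 in Tet1 KD (0.44), and it and Slc7a1 (0.33) were those in Mbd2 KD, each with a limma adjusted p of 1.

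Slc6a9 thus lay above EGFP KD in each of these 3 KDs. It lay at 0.84 and 0.58 in Mbd2 KD, 0.45 and 0.32 in Dnmt1 KD and 0.28 and 0.48 in Tet1 KD, against -0.02 and -0.11 in EGFP KD. The difference in Mbd2 KD, 0.77, had an SE of 0.12 and a limma adjusted p of 1. The second Slc6a9 probe differed by 0.62, 0.72 and 0.77 in Tet1 KD, Mbd2 KD and Dnmt1 KD, by 0.63 in Mbd3 KD and by -0.27 in Chd4 KD. All these values rest on the same pair of control arrays.

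Several of the large differences in these KDs belonged to dim or unevenly measured members. An exception was Slc6a9 in Mbd2 KD, with the levels given above. Slc6a8 was bright, but its levels differed by slide. It lay at 3.13 and 3.22 in Tet1 KD, against 3.48 in EGFP KD on the same slide and 3.84 in EGFP KD on slide 1. Among the low values in Dnmt1 KD were those of Slc1a2 (-1.20) and Slc36a2 (-1.18), and the highest were Slc6a13 (0.94), Slc7a15 (0.69) and Slc38a11 (0.65). Slc1a2 lay at -2.03 and -4.29 on the Dnmt1 KD arrays, so that replicate 1 was between the controls (-2.30 and -1.62) and replicate 2 was below both. In Tet1 KD the lowest were Slc6a8 (-0.49), Slc38a4 (-0.42) and Slc43a3 (-0.39) and the highest Slc6a2 (1.23), Slc36a3 (1.12) and Slc6a3 (1.03). Slc36a3 and Slc6a3 differed mainly from EGFP KD replicate 1, where both were at the floor, since EGFP KD replicate 2, on the slide of the Tet1 KD arrays, lay at -2.77 and -2.89. Among the low values in Mbd2 KD were those of Slc1a2 (-0.50) and Slc36a2 (-0.49), and the highest were Slc6a13 (0.78), Slc6a9 (0.77) and Slc6a17 (0.74).

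Arrays of a group disagreed most over dim transporters, in the groups with 1 array on slide 1. For the 17 members with a mean log2 level between -4 and -2, the median gap between the arrays of a group was 1.00 in Mbd2 KD, 1.49 in Dnmt1 KD, 0.73 in EGFP KD and 1.04 in Mbd3 KD, each of which had 1 array on slide 1. It was 0.15 in Tet1 KD, both of whose arrays were on slide 2, and 0.12 in Chd4 KD, which spanned slides 2 and 3. For the 16 members above 0 the median gaps lay between 0.16 and 0.38. Slc6a13, Slc36a3, Slc6a3, Slc1a2 and the called Slc1a1 are in the dimmer class, while Slc43a1, Slc38a5 and Slc7a3 are brighter and Slc36a4 lies below it, near the floor. Slides accounted for 59% of the variance of the members and groups for 51.7%, in overlapping shares, against 58.7% and 42% over all genes. The part of the slides in the differences of the dim members was not tested.

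**Figure D3:**
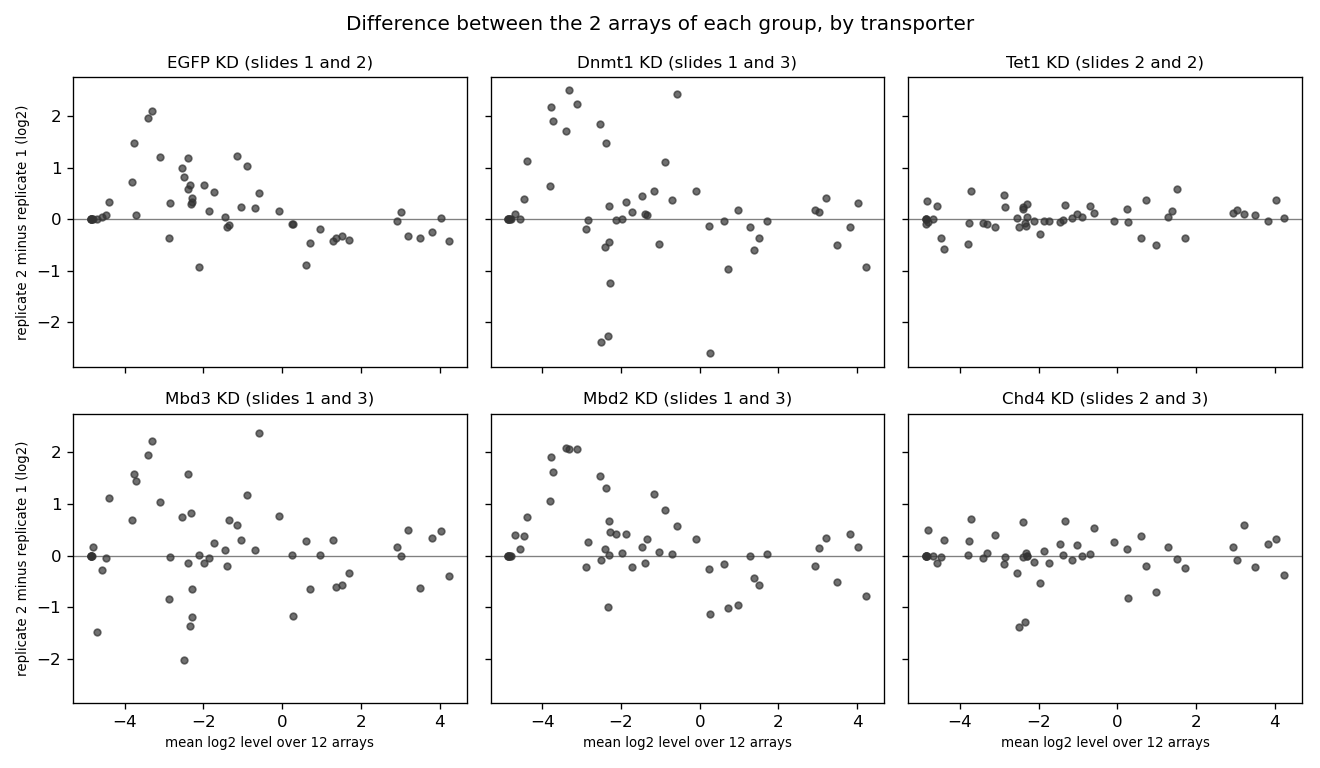
Replicate 2 minus replicate 1 (vertical axis, log2 units) for each of the 55 tested transporters, against its mean log2 level over the 12 arrays (horizontal axis), in 1 panel per group with the slides named. The points of Tet1 KD stay near 0, while those of Dnmt1 KD, Mbd3 KD and Mbd2 KD scatter at mean levels between -4 and -2, where the median gaps were 1.49, 1.04 and 1.00.

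Genes that act beside these transporters were read from lists, again as counts. The share called over all genes was 3.2% in Chd4 KD. Among 20 tested transporters of amino acids from other families, 1 was called there, Slc16a10, a carrier of aromatic amino acids, which rose by 0.67 (limma adjusted p = 0.010) and was also higher than in Mbd3 KD by 1.02. Of 26 genes of amino acid sensing through mTORC1, 0 were called by limma in any comparison, and 5 had an unadjusted p under 0.05 in Chd4 KD, where 12.8% of all genes had. Of 21 genes of the Atf4 amino acid response, 1 was called in Chd4 KD, Atf3, a stress-induced transcription factor, which rose by 0.93 (limma adjusted p = 0.043). However, 13 of the 21 had values below EGFP KD there and 8 above, with a median difference of -0.08. Values above EGFP KD were found for 16 of them in Mbd3 KD, 18 in Dnmt1 KD, 20 in Mbd2 KD and 21 in Tet1 KD. Of 15 enzymes of glutamine, glutamate and GABA metabolism, 1 was called in Chd4 KD, Oat, ornithine aminotransferase, which rose by 1.52 (limma adjusted p = 0.020). In the other KDs, 0 genes of these 4 lists were called by limma against EGFP KD, the largest number at an unadjusted p under 0.05 being 9 of 21 of the Atf4 list in Mbd3 KD, against 9.67% of all genes. Direct comparison of Chd4 KD with Mbd3 KD called 2 more, where 1.45% of all genes were called, both lower in Chd4 KD, Chac1 (-1.13) of the Atf4 list and Gpt2 (-1.03), an alanine aminotransferase.

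Some markers of other cell types differed in Chd4 KD and Mbd3 KD. Signals of 10 trophectoderm markers summed to 14.7 and 15.2 times the 75th percentile in Chd4 KD and 12.2 and 11.8 in Mbd3 KD, against 7.27 and 7.89 in EGFP KD and between 6.98 and 8.37 on the remaining arrays. Krt18 and Tfap2c rose in Chd4 KD, Tfap2c rose and Gata3 fell in Mbd3 KD, and Elf5 was not well above background in EGFP KD. In Mbd3 KD, 5 of the 10 had values above EGFP KD and 5 below, with a median difference of 0.09. In Chd4 KD, 8 lay above and 2 below, with a median difference of 0.35. The 6 tested fibroblast markers summed to 12.4 and 9.35 in Chd4 KD and 9.96 and 9.47 in Mbd3 KD, against 5.18 and 5.71 in EGFP KD, and Postn was not tested. Thy1 rose in both KDs and Col1a1 in Chd4 KD, whereas 4 of the 6 had values below EGFP KD in each, and the median difference of the list was -0.26 in Chd4 KD and -0.40 in Mbd3 KD. The 9 primitive endoderm markers summed to 5.01 and 4.8 in Chd4 KD and to 8.98 and 9.49 in Mbd3 KD, against 9.6 and 11.6 in EGFP KD. Lama1 fell in Chd4 KD, but 6 of the 9 had values above EGFP KD there, and the median difference was 0.13 in Chd4 KD and 0.02 in Mbd3 KD. The 7 neural and mesoderm markers summed to between 5.96 and 8.94 on all arrays, with 0 called. The part of these markers' cells in the levels of Slc38a5, Slc6a13 or the called members was not tested.

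No tested neighbour of Slc38a5 or Slc6a13 was called higher in any KD. On the X chromosome, Ftsj1 and Porcn, on one side of Slc38a5, were lower in Chd4 KD by 0.66 (limma adjusted p = 0.015) and 0.48 (limma adjusted p = 0.032), and in Mbd3 KD they differed by -0.09 and 0.24 without passing. On its other side Ssxb10 was not tested and Ssxb9 differed by -0.72 in Mbd3 KD. On chromosome 6, the genes next to Slc6a13 differed in Chd4 KD by 0.70 (Usp18), 0.99 (Tuba8), 0.32 (Slc6a12) and 1.24 (Iqsec3), and none was called in any KD.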

How the data were processed

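RNA from 12 cultures was measured on one-colour Agilent arrays, 2 for each of 6 groups taken from the labels. The authors quantified spots with Agilent Feature Extraction 10.7.1.1 and deposited each spot's processed intensity, from which the software had taken the background but which was on no common scale across arrays. They also deposited a table of log2 values against EGFP KD for part of the probes, whose scale is compressed (slope 0.0819 to 0.116 on the scanner differences) and whose direction was taken from that comparison. It was used only as an alternative, tested against 0, which leaves out the spread of the control. The paper names limma without stating the normalization.

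Spots with an outlier mark and 1377 control spots were left out. Intensities were divided by the 75th percentile of their array (1784 to 2452), set to at least 0.0344, and put on a log2 scale, and spots of a probe were averaged. A probe was kept if 1 or more groups had it well above background on both their arrays, and a gene was represented by its brightest probe. Accessions were named through RefSeq (GRCm38.p6), with matches for 71.4% of all spots and for 98.4% of spots with a RefSeq mRNA. The 6 groups were fitted as 1 linear model across the 12 arrays (limma 3.58.1, R 4.3.3), with Benjamini-Hochberg adjustment over 29848 genes and calls at an adjusted p under 0.05. Steps were tested on simulated data without a shared slide effect, so that test does not cover differences between slides. The number of arrays limits the precision.

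The members, gene lists and tests were chosen with earlier results of these data known. Named are Slc38a5, Slc6a13, called members, the 3 largest rises and falls of each KD, the 10 brightest in EGFP KD, and members fixed by role. The values of 1 tested member are not reported here. Slc43a2, Slc7a2, Slc7a4, Slc36a1 and Slc6a4 were added to complete their roles after their values were seen. Alternatives were quantile normalization, normexp (offset 50, on the median signal), the deposited table, other filters on dim probes, the mean of a gene's probes, replicate number or slide as a block, within-slide differences, only the 4 arrays of a comparison, a trended and robust prior, and arrays left out. Slides were taken from the array positions in the scanner files.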

Additional observations from a re-analysis of the deposited data

How the results depend on the processing

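Of 6 members called in Chd4 KD, quantile normalization and the fit without both arrays whose target went against the label left 2, the fit on 4 arrays left 0, and the authors' table gave 15. Leaving out 1 array gave 2 to 5. Of 5 in Chd4 KD against Mbd3 KD, normexp and the fit without both doubted arrays left 2, quantile normalization and the filter on all 12 arrays 1, the slide block and the trended and robust prior 3, the 4 arrays 0, and leaving out 1 array 1 to 4. The 1 in Mbd3 KD became 13 in the authors' table, 0 on 4 arrays and 0 without both doubted arrays, and 1 to 2 with 1 array left out. The 1 in Mbd3 KD against Mbd2 KD became 0 on 4 arrays and without both doubted arrays, and remained 1 with any 1 array left out. The 0 in Dnmt1 KD became 6 in the authors' table, and the 0 in Tet1 KD and Mbd2 KD stayed 0 throughout. In Mbd3 KD and in Mbd3 KD against Mbd2 KD the 1 was Slc38a5, which chose the families. The 6 and the 5 also include Slc38a5, and the 6 includes Slc6a13. How the calls of these genes held is a description and not a test.

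Of 238 differences of named members, 141 changed sign under 1 or more alternatives, among them 25 of the 72 with a size of 0.5 or more, and 0 of the 8 called ones other than those of Slc38a5 and Slc6a13 that chose the families. Within-slide differences changed the sign of 50, the slide block of 43, leaving out EGFP KD replicate 1 of 35 and normexp of 34. Changed in sign and past the threshold were 2, both in the authors' table, which holds 27 members, tests against 0 and so leaves out the control's spread. They were Slc3a2 in Mbd3 KD (0.027) and Slc7a15 in Chd4 KD (-0.11). The causes of the other changes were not tested, except that fits on fewer arrays have fewer degrees of freedom. Replicate numbers pair no samples by the labels. Over 15 pairs of groups the differences between replicates correlated between -0.042 and 0.767, and the replicate block called 6 in Chd4 KD, as without it. For normexp, 5 spots of EGFP KD replicate 2 with a local background far above their signal were left out of the fit, a choice made after seeing the data. Levels at the floor give no order.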
